A study of Mus musculus with 50 samples.

Results

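The genes described here make cholesterol, feed it into cells or control SREBP2, the transcription factor that switches the pathway on. They were chosen from a list of 29 gene symbols, which covers enzymes from the first condensation of acetyl units to the last sterol reductase, SREBP2 with its partners, and proteins of receptor turnover and sterol handling. Of the 29 genes, 26 had a probe of their own among the 30723 named genes on the arrays. Tm7sf2, a sterol reductase, shared its probe with Vps51, and that probe was not well above background in any group. No named probe was found for Acat2, which starts the pathway, or for Soat2, which esterifies cholesterol. Other genes of the pathway are not analysed here.

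Levels were measured in liver RNA of CD-1 mice, an outbred strain, on 50 Affymetrix whole-transcript arrays. Dams were gavaged every day from gestational day 1.5 to 17.5, and livers were taken on day 17.5. The exposed groups received PFOA, a perfluorinated carboxylic acid, at 1 or 5 mg/kg each day (PFOA1, PFOA5) or GenX, a perfluorinated ether acid, at 2 or 10 mg/kg each day (GenX2, GenX10), and the controls received vehicle. Fetal groups held 5 arrays for PFOA1, 6 for PFOA5, 5 for GenX2, 4 for GenX10 and 5 for controls, and each maternal group held 5 arrays. Fetuses were exposed only through their dams, and a fetal array stands for 1 fetus of a litter, per the labels. The doses of PFOA and GenX were not matched, so their values stand side by side without a comparison. The labels call maternal and fetal livers matching but name no pairs, so arrays were treated as independent.

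Some fetal arrays go against their labels. The fetuses were described as female, but fetal GenX2 replicate 2 and fetal control replicate 3 had log2 signals of 4.50 and 5.39 for Xist, which coats the silenced X chromosome of females, against 10.52 to 11.48 on the other fetal arrays. In these 2 arrays the Y-linked Eif2s3y stood at 6.10 and 6.49. The source names of fetal PFOA5 replicate 6 and fetal GenX2 replicate 5 give another group than their titles, which were followed. Fetal results are therefore also given without these arrays. Of 11 measured hepatocyte markers, 10 were above background in every fetal group, Apoc3 being the exception, and 11 in every maternal group.

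Cholesterol is built from acetyl units through mevalonate, isoprenoid diphosphates and squalene, which is closed into lanosterol and trimmed to cholesterol. SREBP2 stays in the endoplasmic reticulum with its escort SCAP while sterols hold both to INSIG proteins. When sterols run low, SCAP carries SREBP2 to the Golgi, where it is cut, and the released part raises transcription of the enzymes and of lipoprotein receptors. Liver is a main site of this synthesis, and fetal tissues also depend on cholesterol made in place.

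Promoters are shown for Hsd17b7, Lss, Cyp51, Pmvk and Hmgcs1, which had the largest rises in maternal GenX10 among members that the promoter table holds. Scap is shown as the measured member whose promoter lacks CCAAT. Sqle, Fdft1, Fdps, Npc1, Stard4 and Soat2 are not in the table. Sequences are from RefSeq on GRCm38.p6 and give the 180 bases before each annotated start in the direction of the gene. Capitals mark matches to CCAAT, read as ATTGG on the other strand, and to TCACNCCAC, a form of the sterol regulatory element.
Hsd17b7 (chr1:169969206-169969385, minus strand): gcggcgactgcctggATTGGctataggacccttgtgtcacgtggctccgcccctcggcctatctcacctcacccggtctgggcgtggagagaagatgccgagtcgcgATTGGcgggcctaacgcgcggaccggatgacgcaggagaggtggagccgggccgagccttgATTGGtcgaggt
Lss (chr10:76531425-76531604, plus strand): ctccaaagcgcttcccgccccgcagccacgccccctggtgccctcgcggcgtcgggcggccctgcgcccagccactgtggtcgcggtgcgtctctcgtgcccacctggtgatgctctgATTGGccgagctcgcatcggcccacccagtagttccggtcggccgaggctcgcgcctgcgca
Cyp51 (chr5:4104698-4104877, minus strand): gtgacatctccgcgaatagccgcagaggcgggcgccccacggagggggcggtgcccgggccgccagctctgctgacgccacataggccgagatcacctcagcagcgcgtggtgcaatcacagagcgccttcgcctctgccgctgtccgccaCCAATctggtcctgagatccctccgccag
Pmvk (chr3:89454361-89454540, plus strand): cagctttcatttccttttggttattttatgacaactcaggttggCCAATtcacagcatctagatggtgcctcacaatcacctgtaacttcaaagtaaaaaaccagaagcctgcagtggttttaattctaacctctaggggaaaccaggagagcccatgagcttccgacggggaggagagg
Hmgcs1 (chr13:119690171-119690350, plus strand): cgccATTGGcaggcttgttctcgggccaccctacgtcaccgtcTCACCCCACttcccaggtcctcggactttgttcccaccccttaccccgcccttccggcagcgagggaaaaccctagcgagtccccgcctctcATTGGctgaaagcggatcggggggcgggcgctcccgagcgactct
Scap (chr9:110333108-110333287, plus strand): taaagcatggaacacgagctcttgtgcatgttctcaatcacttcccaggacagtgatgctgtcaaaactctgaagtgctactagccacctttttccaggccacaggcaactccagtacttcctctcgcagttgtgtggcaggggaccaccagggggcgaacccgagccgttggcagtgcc

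Hsd17b7 held 3 CCAAT matches within these bases, Hmgcs1 held 2 and a single TCACNCCAC, and Lss, Cyp51 and Pmvk held 1 CCAAT each. CCAAT is the motif bound by NF-Y, a known partner of SREBP proteins. Over 250 bases before the start and both strands, CCAAT was present in 21 of the 23 listed genes with a promoter in the table (91.3%), all but Acat2 and Scap. Members that were called under no exposure were among the 21 as well: Ggps1, Lbr, Mylip and Insig2. It was present in 10133 of the 27025 genes of the table (37.5%). TCACNCCAC was present in Hmgcs1 alone (4.35% of the 23) and in 331 genes of the table (1.22%). A pair of AGGTCA letters with 1 base between them, a form of the element bound by PPAR receptors, was present in 0 of the 23 and in 11 genes of the table (0.0407%). These are matches of letters in a window, not sites.

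Members of the pathway were higher in exposed livers of both tissues, and none passed the test in the lower direction in any of the 8 comparisons with controls. Calls are at an adjusted p under 0.05 in limma, with the Benjamini-Hochberg adjustment over all 30723 genes. The 4 comparisons of a tissue share its 5 control arrays, so agreement between exposures is not independent. In fetal liver, PFOA1 raised 1 of the 26 members, PFOA5 raised 7, GenX2 raised 8 and GenX10 raised 7. Of all genes, 0.843%, 2.33%, 3.90% and 4.42% were called higher in the same 4 comparisons. In maternal liver, PFOA1 raised 0 of the 26, PFOA5 raised 13, GenX2 raised 11 and GenX10 raised 19. Here 0.0293%, 10.8%, 2.42% and 7.52% of all genes were called higher. Lower calls, of which the members had none, made up 0.111%, 1.05%, 2.83% and 4.84% of all genes in fetal liver and 0.00325%, 9.03%, 0.937% and 6.21% in maternal liver.

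The shift went beyond the members that passed. Fetal differences from controls were above 0 in 19, 21, 24 and 22 of the 26 members with PFOA1, PFOA5, GenX2 and GenX10, with median log2 differences of 0.14, 0.25, 0.28 and 0.22. Maternal differences were above 0 in 24, 22, 25 and 25 members, with medians of 0.16, 0.36, 0.37 and 0.79. The medians over all genes lay between -0.06 and 0.02 in these comparisons. In bulk liver, more RNA per cell and more cells of a type cannot be told apart.

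**Figure D1:**
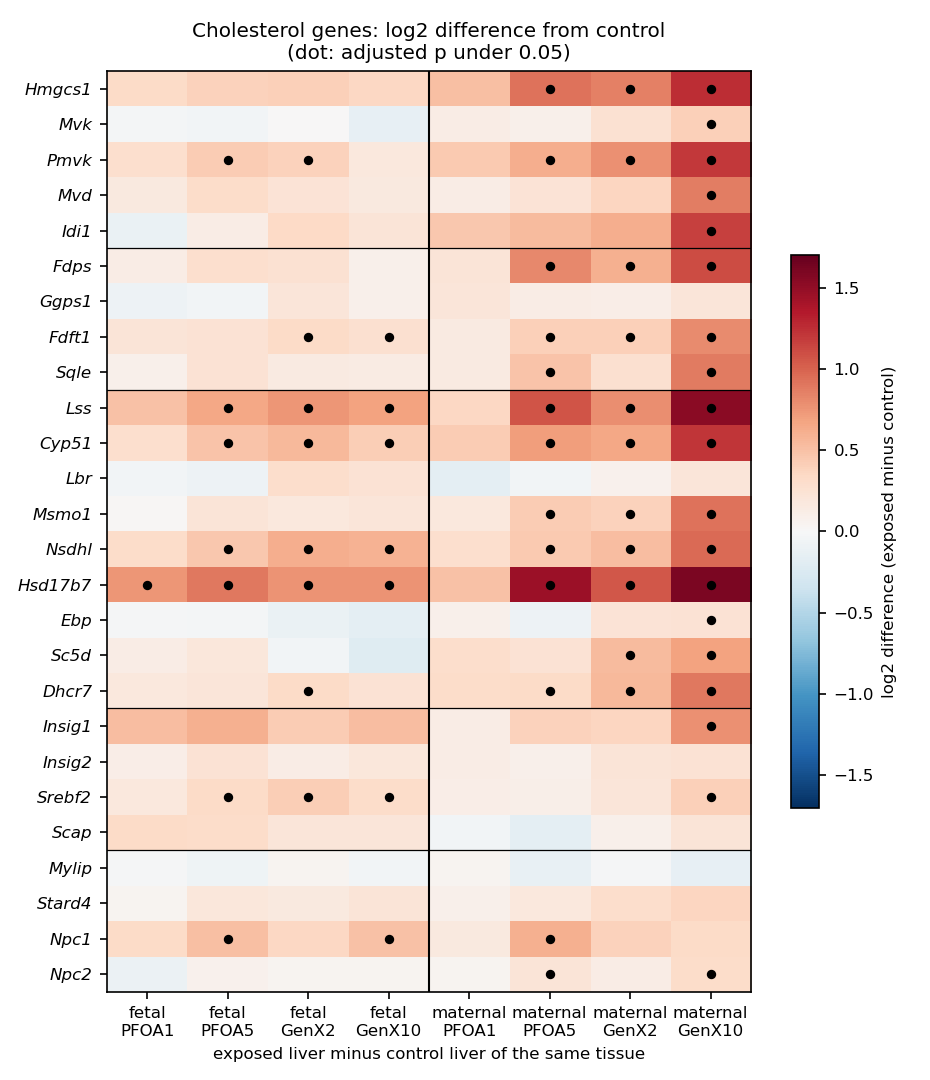
Log2 difference from control for each of the 26 measured members (rows, by step of the pathway) under each exposure (columns, fetal then maternal), with a mark on members called at an adjusted p under 0.05. The strongest colours lie in maternal GenX10, where 19 members were called, and in the row of Hsd17b7.

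The fetal counts changed without the doubtful arrays. Without the 2 arrays with low Xist, 0, 5, 5 and 5 members were called with PFOA1, PFOA5, GenX2 and GenX10. Without the 2 arrays whose labels conflict, the counts were 1, 5, 6 and 6, and with the source names followed they were 1, 5, 6 and 8. Hsd17b7, Lss, Nsdhl, Cyp51 and Srebf2 with GenX2, and Hsd17b7, Lss, Npc1, Cyp51 and Srebf2 with PFOA5, passed in all 3 of these fits. Without the low Xist arrays, Nsdhl and Pmvk missed the threshold with PFOA5, Pmvk, Fdft1 and Dhcr7 with GenX2, and Cyp51 and Fdft1 with GenX10. Leaving out 1 array whose label is not in doubt moved some counts as much: fetal PFOA5 had 5 calls without control replicate 2 or 5 or PFOA5 replicate 4 or 5. Fetal GenX10 had 5 calls without control replicate 5 or GenX10 replicate 2 or 4, and 4 without GenX10 replicate 1.

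Erythroid markers were slightly higher with fetal GenX, with arrays that overlapped the controls. All 9 measured erythroid markers had differences above 0 in fetal GenX2 and in fetal GenX10, of which Slc4a1 passed the test with GenX2. Their mean level was 9.74 in fetal GenX2 (arrays 9.50 to 10.12), 9.67 in fetal GenX10 (9.51 to 9.77) and 9.52 in fetal controls (9.37 to 9.75). With this mean level as a covariate, 1, 8, 11 and 7 members were called higher with PFOA1, PFOA5, GenX2 and GenX10. In maternal liver, 8 of these 9 markers were not above background in any group. Hepatocyte markers averaged 11.59 in fetal GenX2 (11.49 to 11.71), 11.59 in fetal GenX10 (11.46 to 11.68) and 11.69 in fetal controls (11.64 to 11.73).

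Macrophage markers moved with maternal PFOA5 and GenX10. Of 10 measured, 5 were called higher in maternal PFOA5 and 3 in maternal GenX10, and all 10 differences were above 0 in both. Their mean level was 7.84 in maternal PFOA5 (arrays 7.13 to 8.07), 7.81 in maternal GenX10 (7.53 to 8.19) and 7.32 in maternal controls (6.97 to 7.74), and Adgre1 and C1qa stayed below background. Hepatocyte markers averaged 12.08 in maternal PFOA5 (12.02 to 12.14) and 12.23 in maternal controls (12.19 to 12.25), with 1 of 11 called higher and 4 lower. The part of either list in the members' rises was not tested.

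The largest change belonged to Hsd17b7, the ketoreductase that takes part in removing methyl groups from the sterol ring. In maternal liver its log2 signals were 7.72, 8.12, 7.76, 7.79 and 7.86 in controls, 8.01, 8.33, 8.29, 8.52 and 8.58 with PFOA1, and 9.36, 9.24, 9.17, 9.46 and 9.25 with PFOA5. They were 9.09, 8.90, 9.04, 8.78 and 8.73 with GenX2 and 9.69, 9.11, 9.51, 9.33 and 9.59 with GenX10. Every PFOA5, GenX2 and GenX10 array lay above every control array, while PFOA1 overlapped the controls. The log2 differences were 1.45 ± 0.11 with PFOA5 (2.73-fold, adjusted p = 2.8e-09), 1.06 ± 0.11 with GenX2 (2.09-fold, adjusted p = 2.1e-06) and 1.60 ± 0.11 with GenX10 (3.02-fold, adjusted p = 1.2e-09; ± is the standard error throughout).

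With maternal PFOA1, Hsd17b7 had the smallest p of the 26 members and missed the threshold. Its difference was 0.50 ± 0.11 (95% interval 0.27 to 0.72, limma adjusted p = 0.13). At an unadjusted p under 0.05, 9 of the 26 members and 1530 of all genes passed in that comparison. Without PFOA1 replicate 1 its difference was 0.58 and was called, with adjusted p values from 0.0076 to 0.56 over all alternatives. That array had Ehhadh, a peroxisomal enzyme raised by such compounds in mice, at 10.54, against 11.94 to 12.36 on the other arrays of its group and 10.36 to 10.59 in controls. Without control replicate 2, Hmgcs1 was called at 0.65 (adjusted p 0.045 to 0.75 over all alternatives). Pmvk, given further on, had 8.74, 8.90, 9.13, 9.18 and 8.99 with PFOA1 against 8.58, 8.73, 8.58, 8.33 and 8.46 in controls, without overlap, and a difference of 0.45 ± 0.12 (adjusted p = 0.34).

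Hsd17b7 was also the member raised by every exposure in fetal liver. Its signals were 8.20, 8.22, 8.30, 8.72 and 8.15 in fetal controls, 9.16, 8.50, 9.38, 9.39 and 8.93 with PFOA1, and 8.70 to 9.57 (median 9.29) with PFOA5. They were 9.03, 9.06, 9.15, 8.84 and 9.37 with GenX2 and 9.01, 9.34, 8.80 and 9.15 with GenX10. All GenX arrays lay above all controls, and PFOA1 and PFOA5 overlapped them only through control replicate 4, at 8.72. The differences were 0.75 ± 0.16 with PFOA1 (1.68-fold, adjusted p = 0.019), 0.90 ± 0.16 with PFOA5 (adjusted p = 7.3e-04), 0.77 ± 0.16 with GenX2 (adjusted p = 0.0044) and 0.76 ± 0.17 with GenX10 (adjusted p = 0.0064). The PFOA1 call was lost in 8 of 23 alternatives, among them the fit without the low Xist arrays (0.75, adjusted p = 0.058; adjusted p 0.0011 to 0.075 over all alternatives), and the fits lacking fetal control replicate 1, 2 or 5, or fetal PFOA1 replicate 1, 3 or 4.

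Lss, which closes the ring to lanosterol, differed between the tissues at the outset and rose in both. Fetal signals were 9.49, 9.46, 9.43, 9.47 and 9.30 in controls, 10.11, 9.54, 10.10, 10.12 and 9.76 with PFOA1, and 9.50 to 10.44 (median 10.29) with PFOA5. Fetal GenX2 had 10.10, 10.26, 10.05, 9.93 and 10.53, and fetal GenX10 had 9.98, 10.33, 10.13 and 10.02. No exposed fetal array fell within the range of its controls, which spanned 9.30 to 9.49. The fetal differences were 0.66 ± 0.14 with PFOA5 (adjusted p = 0.0070), 0.75 ± 0.15 with GenX2 (adjusted p = 0.0027) and 0.69 ± 0.16 with GenX10 (adjusted p = 0.0074), while PFOA1 gave 0.50 ± 0.15 (adjusted p = 0.17).

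Maternal Lss signals were 7.70, 8.09, 7.44, 7.62 and 7.59 in controls, 7.91, 8.11, 8.14, 8.04 and 8.01 with PFOA1, and 8.55, 9.18, 8.55, 8.41 and 9.12 with PFOA5. Maternal GenX2 had 8.91, 8.51, 8.31, 8.24 and 8.42, and GenX10 had 9.43, 8.98, 9.02, 8.87 and 9.80. PFOA5, GenX2 and GenX10 lay wholly above the controls. The differences were 1.07 ± 0.17 with PFOA5 (2.10-fold, adjusted p = 6.1e-05), 0.79 ± 0.17 with GenX2 (1.73-fold, adjusted p = 0.0069) and 1.53 ± 0.17 with GenX10 (2.89-fold, adjusted p = 7.0e-07).

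**Figure D2:**
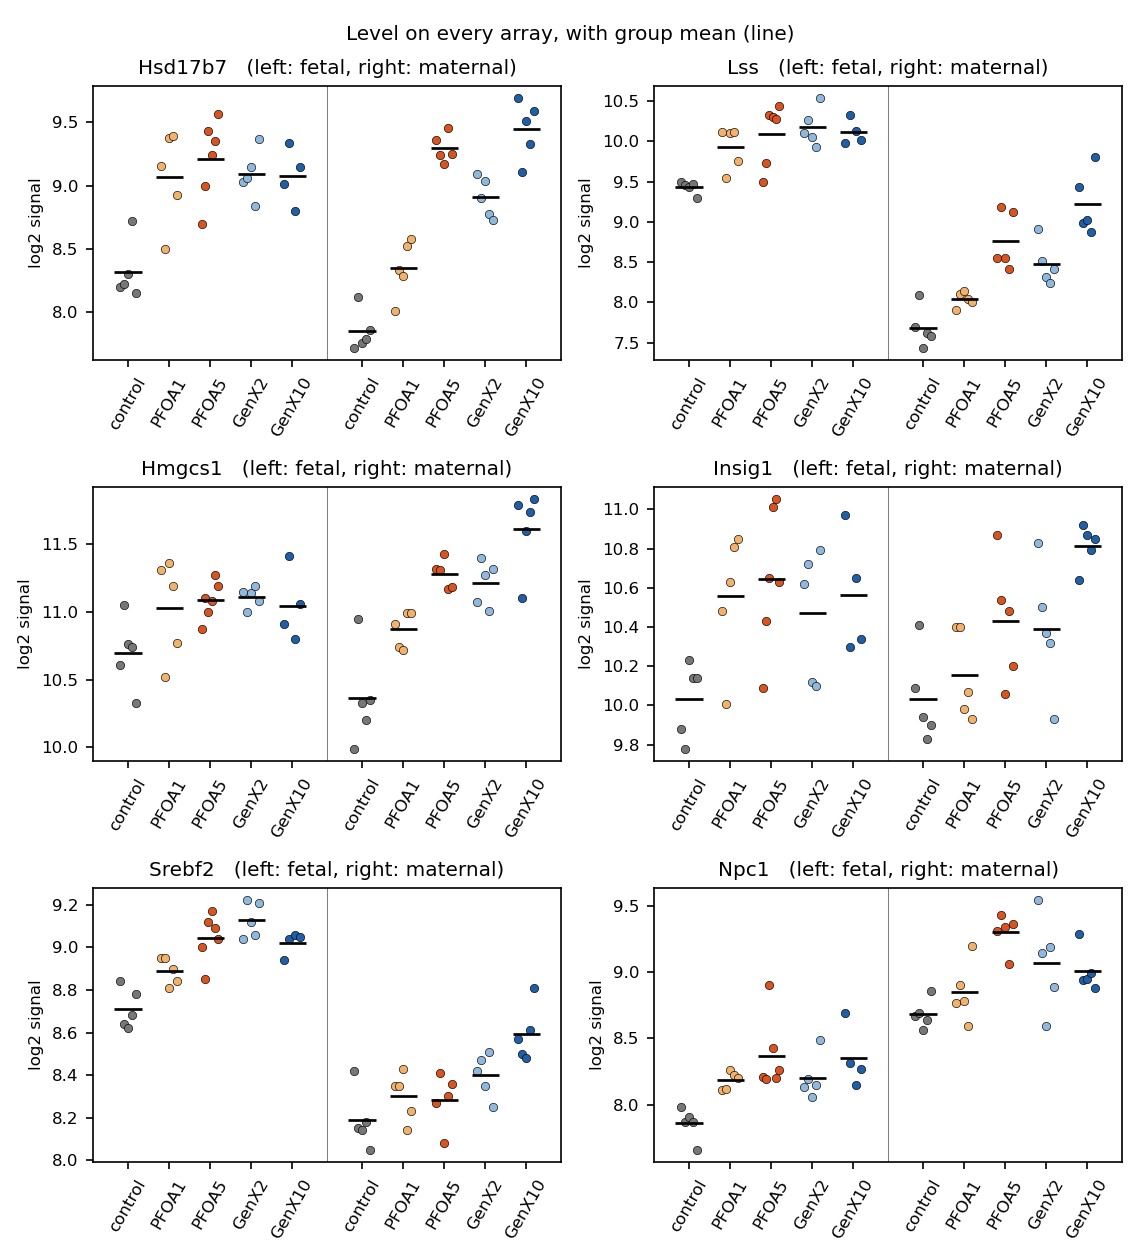
Log2 signal on every array for Hsd17b7, Lss, Hmgcs1, Insig1, Srebf2 and Npc1, with fetal groups on the left and maternal groups on the right of each panel, each running from control through PFOA1, PFOA5, GenX2 and GenX10. Maternal Hsd17b7 with GenX10 lay between 9.11 and 9.69, above all maternal controls, and fetal Lss in every exposed group lay above the control range.

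The enzymes that build mevalonate and activate it, Hmgcs1, Mvk, Pmvk, Mvd and Idi1, all rose in maternal GenX10. In fetal liver 0, 1, 1 and 0 of the 5 were called with PFOA1, PFOA5, GenX2 and GenX10, and in maternal liver 0, 2, 2 and 5. The fetal median differences were 0.17, 0.31, 0.34 and 0.18, and the maternal medians were 0.45, 0.54, 0.62 and 1.16. Both fetal calls were of Pmvk, the phosphomevalonate kinase (0.43 ± 0.11 with PFOA5, adjusted p = 0.022, and 0.39 ± 0.11 with GenX2, adjusted p = 0.037). They were lost in 10 of 24 and 12 of 23 alternatives.

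Hmgcs1, the synthase that makes hydroxymethylglutaryl-CoA, was among the brightest members. Its maternal signals were 9.99, 10.95, 10.33, 10.20 and 10.35 in controls, 10.91, 10.74, 10.72, 10.99 and 10.99 with PFOA1, and 11.32, 11.31, 11.43, 11.17 and 11.18 with PFOA5. They were 11.07, 11.40, 11.27, 11.01 and 11.32 with GenX2 and 11.79, 11.10, 11.60, 11.74 and 11.83 with GenX10. Control replicate 2, at 10.95, lay within the PFOA1 range, and the other 3 exposed groups lay above every control. The maternal differences were 0.92 ± 0.14 with PFOA5 (adjusted p = 3.4e-05), 0.85 ± 0.14 with GenX2 (adjusted p = 4.3e-04) and 1.25 ± 0.14 with GenX10 (2.38-fold, adjusted p = 7.3e-07). Fetal Hmgcs1 differed by 0.33 to 0.41 from controls over the 4 exposures, with adjusted p values of 0.085 to 0.53, and was not called. With fetal PFOA5 it was called under 1 of 24 alternatives, the erythroid covariate (0.45, adjusted p 0.038 to 0.38 over all), and with fetal GenX2 under 2 of 23, the filter on dim genes and the fit without control replicate 2 (adjusted p 0.038 to 0.33 over all).

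Pmvk rose in maternal liver by 0.62 with PFOA5, 0.78 with GenX2 and 1.20 with GenX10 (adjusted p = 6.5e-04, 2.5e-04 and 1.8e-07). Idi1, the isomerase that makes the reactive isoprenoid unit, rose by 1.16 ± 0.23 with maternal GenX10 (adjusted p = 0.0011), with replicate 2 at 9.18 and the others between 9.90 and 10.16. Mvd, the decarboxylase before it, rose by 0.87 ± 0.14 there (adjusted p = 1.8e-04). Mvk, mevalonate kinase, rose by 0.40 ± 0.08 with GenX10 (adjusted p = 0.0013). It was not well above background in maternal controls, so its rise is at least 1.16-fold, and it was not well above background in any fetal group.

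Of the 4 enzymes that handle prenyl diphosphates and squalene, those called in fetal liver were 0, 0, 1 and 1 with PFOA1, PFOA5, GenX2 and GenX10, and those called in maternal liver 0, 3, 2 and 3. Fdps, which makes farnesyl diphosphate, rose by 0.82 ± 0.11 with maternal PFOA5 (adjusted p = 8.3e-06), 0.61 ± 0.11 with maternal GenX2 (adjusted p = 0.0015) and 1.11 ± 0.11 with maternal GenX10 (adjusted p = 1.6e-07). In fetal liver its differences were 0.12, 0.28, 0.26 and 0.09 (adjusted p 0.23 to 0.9), and none was called. Fdft1, squalene synthase, rose in fetal GenX2 (0.33 ± 0.08, adjusted p = 0.01) and fetal GenX10 (0.27 ± 0.08, adjusted p = 0.045), calls lost in 2 of 23 and 10 of 22 alternatives, and in maternal PFOA5, GenX2 and GenX10 (0.40, 0.40 and 0.81). Sqle, the epoxidase that acts on squalene, rose in maternal PFOA5 (0.49, adjusted p = 0.0081) and GenX10 (0.88, adjusted p = 2.8e-05). Ggps1, which makes the longer geranylgeranyl diphosphate used outside the sterol branch, was not well above background in any group and was not called in any exposure.

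The 9 measured enzymes of ring closure and sterol trimming held most of the fetal calls: 1, 4, 5 and 4 with PFOA1, PFOA5, GenX2 and GenX10. The maternal counts were 0, 6, 7 and 8. Nsdhl, the dehydrogenase of the demethylation complex in which Hsd17b7 also works, had fetal signals of 9.46, 9.43, 9.49, 9.67 and 9.72 with GenX2 and 9.41, 9.91, 9.33 and 9.44 with GenX10, against 8.81, 8.91, 8.92, 9.19 and 8.83 in controls. Both GenX groups lay above all controls, with differences of 0.62 ± 0.12 (adjusted p = 0.0023) and 0.59 ± 0.13 (adjusted p = 0.0048). Fetal PFOA5 gave 0.46 ± 0.12 (adjusted p = 0.025), a call lost in 12 of 24 alternatives. Maternal Nsdhl rose by 0.45, 0.53 and 0.96 with PFOA5, GenX2 and GenX10.

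Cyp51, which removes the first methyl group from lanosterol, rose in the same fetal groups, by 0.49 ± 0.12 with PFOA5 (adjusted p = 0.013), 0.55 ± 0.12 with GenX2 (adjusted p = 0.0054) and 0.42 ± 0.13 with GenX10 (adjusted p = 0.039). The PFOA5 and GenX10 calls were lost in 2 of 24 and 15 of 22 alternatives. In maternal liver Cyp51 rose by 0.71, 0.66 and 1.21 with PFOA5, GenX2 and GenX10. Dhcr7, the last reductase to cholesterol, rose by 0.33 ± 0.09 in fetal GenX2 (adjusted p = 0.032, lost in 10 of 23 alternatives) and by 0.33, 0.55 and 0.90 in maternal PFOA5, GenX2 and GenX10. Its maternal PFOA5 call was lost in 3 of 19 alternatives.

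Among the remaining sterol enzymes, Msmo1, Sc5d and Ebp were called in maternal groups, and the difference between tissues is tested further on. Msmo1, an oxidase that takes part in demethylation, rose by 0.43 with maternal PFOA5, 0.39 with GenX2 and 0.92 with GenX10. These rises are at least 1.05-fold, 1.03-fold and 1.48-fold, since Msmo1 was not well above background in controls. The GenX2 call was lost in 11 of 19 alternatives. Sc5d, the desaturase near the end of the pathway, rose by 0.54 with maternal GenX2 (adjusted p = 0.024, lost in 6 of 19 alternatives) and 0.68 with GenX10 (adjusted p = 0.0014). Ebp, a sterol isomerase, was called once, in maternal GenX10 (0.24 ± 0.08, adjusted p = 0.046, lost in 11 of 19 alternatives). Lbr, a sterol reductase of the nuclear envelope, was called in no exposure, with fetal differences of -0.08 to 0.30 and maternal differences of -0.16 to 0.20.

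Every array's enzyme level can be read as the mean of its 18 log2 differences from the control mean. In fetal liver this mean ran from -0.13 to 0.09 over controls, -0.09 to 0.33 with PFOA1, 0.07 to 0.42 with PFOA5, 0.27 to 0.40 with GenX2 and 0.13 to 0.45 with GenX10. In maternal liver it ran from -0.13 to 0.28 over controls, 0.19 to 0.35 with PFOA1, 0.35 to 0.62 with PFOA5, 0.37 to 0.65 with GenX2 and 0.70 to 1.08 with GenX10. Maternal control replicate 2 stood at 0.28, with all 18 enzymes above the control mean, and the other controls at -0.04 or below. Fetal PFOA1 replicates 2 and 5 stood within the control range.

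**Figure D3:**
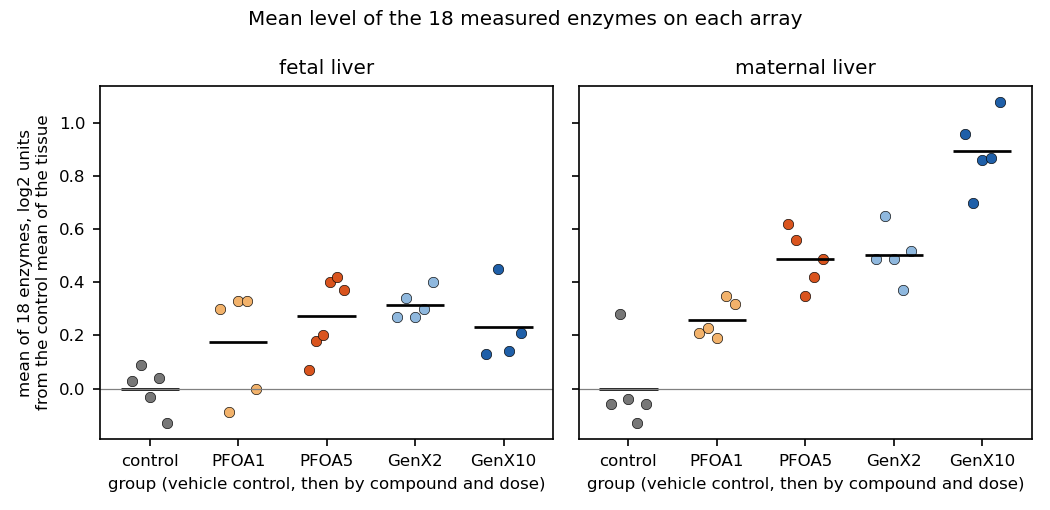
Mean log2 difference of the 18 measured enzymes from the control mean of the tissue, for every array (points), with fetal groups and maternal groups each running from control through PFOA1, PFOA5, GenX2 and GenX10. The maternal GenX10 arrays lay between 0.70 and 1.08, above all other maternal arrays.

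Of the 4 genes of SREBP2 and its control, Srebf2 passed the test in fetal liver with 3 exposures. Srebf2 encodes SREBP2 and is itself one of its targets. Its fetal signals were 8.84, 8.64, 8.62, 8.68 and 8.78 in controls, 8.95, 8.95, 8.81, 8.90 and 8.84 with PFOA1, and 8.85 to 9.17 (median 9.07) with PFOA5. They were 9.04, 9.22, 9.12, 9.06 and 9.21 with GenX2 and 8.94, 9.04, 9.06 and 9.05 with GenX10. PFOA5, GenX2 and GenX10 lay above every fetal control. The rises were small and regular: 0.33 ± 0.06 with PFOA5 (1.26-fold, adjusted p = 4.8e-04), 0.42 ± 0.06 with GenX2 (1.34-fold, adjusted p = 4.2e-05) and 0.31 ± 0.06 with GenX10 (1.24-fold, adjusted p = 0.0020). The last of these calls was lost in 1 of 22 alternatives, a second quantile normalization (0.20, limma adjusted p = 0.098). With PFOA1 the difference was 0.18 ± 0.06 (adjusted p = 0.24).

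Maternal Srebf2 signals were 8.42, 8.15, 8.14, 8.18 and 8.05 in controls, 8.35, 8.35, 8.43, 8.14 and 8.23 with PFOA1, and 8.27, 8.41, 8.08, 8.30 and 8.36 with PFOA5. They were 8.42, 8.47, 8.35, 8.51 and 8.25 with GenX2 and 8.57, 8.50, 8.48, 8.61 and 8.81 with GenX10. Only GenX10 lay above all controls, by 0.41 ± 0.08 (1.33-fold, adjusted p = 8.5e-04). The differences were 0.11 with PFOA1, 0.10 with PFOA5 and 0.21 with GenX2 (adjusted p = 1, 0.38 and 0.16).

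Insig1, a sterol sensor that retains SCAP and is raised by SREBP2, was called in maternal GenX10 alone. Its maternal signals were 10.09, 10.41, 9.94, 9.83 and 9.90 in controls, 10.40, 10.40, 9.98, 10.07 and 9.93 with PFOA1, and 10.87, 10.54, 10.06, 10.48 and 10.20 with PFOA5. They were 10.83, 10.50, 10.37, 10.32 and 9.93 with GenX2 and 10.64, 10.92, 10.87, 10.79 and 10.85 with GenX10. The GenX10 arrays lay above all controls and close together (0.78 ± 0.15, 1.72-fold, adjusted p = 9.5e-04), and the other groups overlapped the controls. The maternal differences were 0.12 with PFOA1, 0.39 with PFOA5 and 0.36 with GenX2 (adjusted p = 1, 0.065 and 0.22), and the PFOA5 difference was called in 6 of 19 alternatives.

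Fetal Insig1 signals were 9.88, 9.78, 10.23, 10.14 and 10.14 in controls, 10.48, 10.01, 10.63, 10.81 and 10.85 with PFOA1, and 10.09 to 11.05 (median 10.64) with PFOA5. They were 10.62, 10.72, 10.12, 10.10 and 10.79 with GenX2 and 10.97, 10.30, 10.65 and 10.34 with GenX10. The exposed arrays were mostly higher and widely spread. The fetal differences of 0.52 ± 0.19, 0.61 ± 0.18, 0.43 ± 0.19 and 0.53 ± 0.20 with PFOA1, PFOA5, GenX2 and GenX10 missed the threshold (adjusted p = 0.33, 0.06, 0.19 and 0.091). With PFOA5 the difference was called in 5 of 24 alternatives (adjusted p 0.014 to 0.16 over all). With the erythroid level as covariate, Insig1 was called in fetal GenX2 (0.61, adjusted p = 0.047) and GenX10 (0.65, adjusted p = 0.028), and in fetal GenX10 also with arrays centred on their medians (adjusted p = 0.049). Over all alternatives the adjusted p values ran from 0.047 to 0.36 with GenX2 and from 0.028 to 0.28 with GenX10.

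Insig2, the second INSIG gene, was called in no exposure. Its maternal signals were 9.74, 10.13, 9.94, 9.82 and 9.80 in controls and 9.75 to 10.50 over the exposed arrays, with differences of 0.08 to 0.25. Its fetal signals of 6.79, 6.92, 6.97, 6.98 and 6.84 in controls and 6.76 to 7.57 over the exposed arrays were not well above background in any group. Scap, the escort of SREBP2, had fetal differences of 0.20 to 0.32 and maternal differences of -0.16 to 0.22, and was not called. It was called under 1 alternative each in fetal PFOA5 (array weights, 0.39, adjusted p 0.028 to 0.53 over all) and in fetal GenX2 (erythroid covariate, 0.36, adjusted p 0.034 to 0.8 over all).

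Among genes of receptor turnover and sterol handling, Npc1 changed most. Npc1 is the membrane protein that passes cholesterol out of lysosomes. Its fetal signals were 8.19 to 8.90 (median 8.24) with PFOA5 against 7.98, 7.87, 7.91, 7.87 and 7.66 in controls. All PFOA5 arrays lay above the controls, with replicate 3 at 8.90 and the others at 8.19 to 8.43. The difference was 0.51 ± 0.11 (adjusted p = 0.0062), and with fetal GenX10, at 8.69, 8.31, 8.15 and 8.27, it was 0.50 ± 0.12 (adjusted p = 0.01). The GenX10 call was lost without replicate 1 (adjusted p = 0.066, with 0.0025 as the lowest over all alternatives).

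In maternal liver, Npc1 signals were 9.31, 9.43, 9.34, 9.06 and 9.36 with PFOA5, against 8.67, 8.69, 8.56, 8.64 and 8.86 in controls, with no overlap. The difference was 0.61 ± 0.13 (adjusted p = 0.0013). With maternal PFOA1, GenX2 and GenX10 it was 0.16, 0.39 and 0.32 and was not called. Npc2, the soluble protein that hands cholesterol to Npc1, was not well above background in any group, so its maternal differences of 0.22 with PFOA5 (adjusted p = 0.023) and 0.31 with GenX10 (adjusted p = 0.0035) carry no fold. Stard4, a carrier of cholesterol in the cytosol, was not called in any exposure, with fetal differences of 0.04 to 0.22 and maternal differences of 0.09 to 0.37.

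Mylip, a ubiquitin ligase known as IDOL that marks lipoprotein receptors for breakdown, was not called against controls. Its maternal signals were 7.61, 7.56, 7.79, 7.61 and 7.67 in controls, 7.69, 7.71, 7.64, 7.73 and 7.73 with PFOA1, and 7.43, 7.48, 7.53, 7.59 and 7.58 with PFOA5. They were 7.64, 7.75, 7.49, 7.66 and 7.58 with GenX2 and 7.69, 7.49, 7.39, 7.45 and 7.54 with GenX10. The largest maternal differences were -0.13 ± 0.06 with PFOA5 (adjusted p = 0.12) and -0.14 ± 0.06 with GenX10 (adjusted p = 0.11), both called lower after a second quantile normalization (adjusted p = 0.023 and 0.043), and with GenX10 also without GenX10 replicate 1. Over all alternatives the adjusted p reached 0.46 in both. Fetal Mylip signals were 8.09, 8.21, 8.02, 8.08 and 7.86 in controls, 8.09, 8.13, 8.06, 8.13 and 7.76 with PFOA1 and 7.92 to 8.05 (median 7.97) with PFOA5. They were 8.22, 8.09, 7.84, 8.36 and 7.94 with GenX2 and 7.90, 8.10, 7.89 and 8.11 with GenX10, so all exposed groups overlapped the controls, with differences of -0.07 to 0.04.

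A reading without a test asks that every exposed array exceed every control array. In the fetal groups PFOA1, PFOA5, GenX2 and GenX10 this held for 2, 6, 8 and 8 members, against 1.79%, 2.12%, 3.49% and 4.34% of all genes. Lss and Npc1 met it in all 4 fetal exposures, against the same controls. In the same maternal groups it held for 1 (Pmvk), 9, 6 and 18 members, against 0.439%, 8.04%, 2.47% and 6.09% of all genes. Lbr was lower on every maternal PFOA1 array than on any control, as were 0.283% of all genes, and was not well above background in that group. With PFOA1, fewer genes were called higher (0.843% in fetal and 0.0293% in maternal liver) than had all arrays higher. Insig2 in fetal PFOA5 and Npc2 in maternal GenX10 were counted while not well above background in either group compared.

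The dose made a difference in maternal liver. PFOA5 exceeded PFOA1 in 6 members, where 10.1% of all genes did: Hsd17b7 (0.95 ± 0.11, adjusted p = 2.6e-06), Lss (0.72 ± 0.17), Fdps (0.60 ± 0.11), Npc1 (0.45 ± 0.13), Hmgcs1 (0.41 ± 0.14) and Fdft1 (0.25 ± 0.09). Mylip was lower with PFOA5 than with PFOA1 (-0.18 ± 0.06, adjusted p = 0.035), as were 8.50% of all genes, and no PFOA5 array reached the lowest PFOA1 array, which held for 6.79% of all genes. The calls of Hmgcs1, Fdft1 and Mylip were lost in 10, 9 and 8 of 19 alternatives. Leaving out PFOA1 replicate 1 or 4 or PFOA5 replicate 1 or 2 left 4, 3, 4 and 4 of the 7 calls.

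GenX10 exceeded GenX2 in maternal liver in 4 members, where 0.176% of all genes did. These were Sqle (0.62 ± 0.13), Hsd17b7 (0.54 ± 0.11) and Msmo1 (0.52 ± 0.11), each at an adjusted p of 0.032, and Fdft1 (0.41 ± 0.09, adjusted p = 0.034). The median over the 26 members was 0.37, and 24 differences were above 0. These calls were thin: with GenX2 replicate 4 or 5 or GenX10 replicate 1, 3 or 5 left out, 0 members were called, and 1 without GenX2 replicate 2 and 2 without GenX10 replicate 4. The 10 macrophage markers all had differences above 0 in this comparison and in that of the PFOA doses, and none was called.

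In fetal liver the dose made no detectable difference to these genes. PFOA5 against PFOA1 called 0 members and 0.0456% of all genes in limma, with 2 members and 2618 genes at an unadjusted p under 0.05 and a median of 0.14. GenX10 against GenX2 called 0 members and 0 genes, with 0 members and 623 genes at an unadjusted p under 0.05 and a median of -0.06.

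Fetal and maternal controls differed in 17 of the 26 members, 12 higher and 5 lower in fetal liver. Of all genes, 20.0% were called higher and 42.2% lower, and their median difference was -0.13. Insig2 stood apart most: the fetal signals given above lay far below the maternal ones. The difference was -2.99 ± 0.11 (adjusted p = 2.8e-26), or at least 3.98-fold lower in fetal liver. Lbr had 9.88, 10.39, 10.34, 9.90 and 9.80 in fetal controls against 7.56, 7.74, 7.73, 7.58 and 7.64 in maternal controls. Its fetal arrays were all far above the maternal ones (2.41 ± 0.13, 5.32-fold, adjusted p = 7.9e-21).

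Lss was 1.74 ± 0.17 higher in fetal controls (3.34-fold, adjusted p = 2.9e-12), with the signals given earlier and no overlap. Enzymes higher in fetal liver by less were Sqle (0.62), Hsd17b7 (0.47), Hmgcs1 (0.34), Fdps (0.28) and Fdft1 (0.27), of which the calls of Hmgcs1 and Fdps were lost in 11 and 7 of 21 alternatives. Srebf2 (0.52 ± 0.07, adjusted p = 1.3e-08), Stard4 (0.65) and Mylip (0.40) were also higher. Ggps1 (0.97) and Npc2 (0.19) were called higher while not well above background in either tissue.

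The other members called lower in fetal controls were Sc5d (-0.91), Npc1 (-0.83), Scap (-0.78) and Ebp (-0.50, at least 1.07-fold). All 5 lower members had no overlap between tissues, as had 25.1% of all genes, and 6 members were higher without overlap, as were 15.5% of all genes. Insig1 showed a difference of 0.00 ± 0.17. Fetal control liver held signals of blood-forming cells that maternal liver lacked: 8 of 9 erythroid markers were above background in fetal controls (mean 9.52, arrays 9.37 to 9.75) and 1 of 9 in maternal controls (mean 6.28, arrays 6.25 to 6.33), and 6 and 0 of 9 granulocyte markers. Their part in these differences was not tested.

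**Figure D4:**
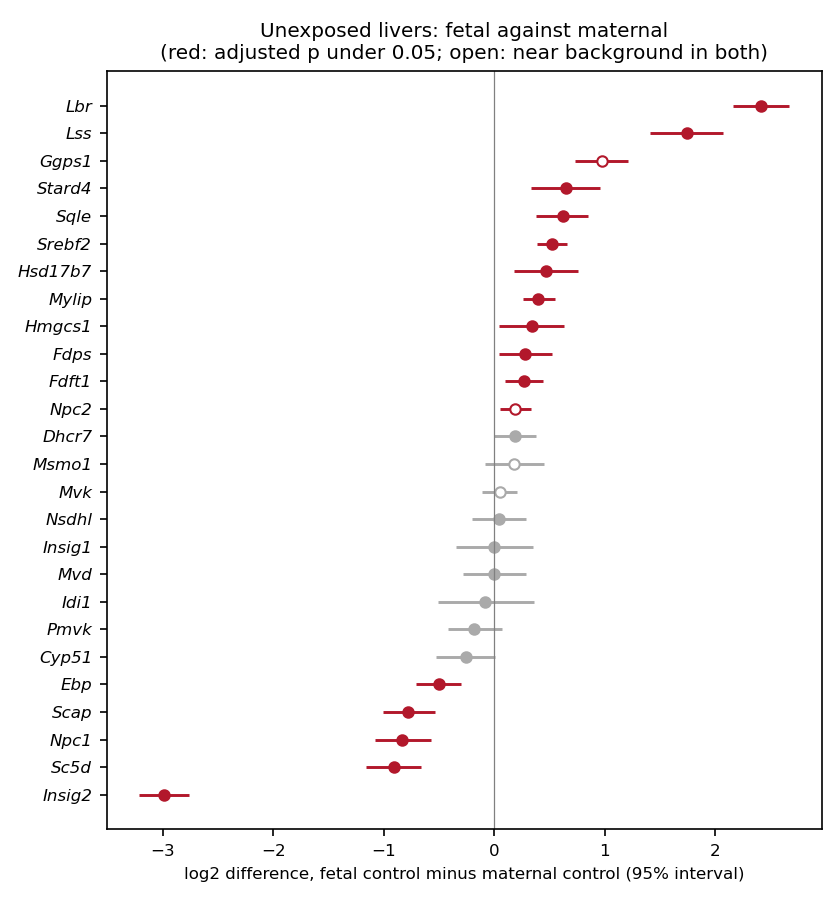
Log2 difference of fetal control over maternal control for the 26 members, with 95% confidence intervals; open points are not well above background in both tissues. Insig2 lies far to the low side at -2.99, and Lbr at 2.41 and Lss at 1.74 lie on the high side.

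The exposures' effects on the 2 tissues could be compared without shared controls. With GenX10 the fetal effect was smaller in 23 of the 26 members, with a median difference of -0.54, and 11 members passed the test of the difference, where 1.29% of all genes were called in that direction. They were Pmvk (-1.02 ± 0.17, adjusted p = 1.8e-04), Fdps (-1.01 ± 0.17, adjusted p = 1.8e-04), Hmgcs1 (-0.90 ± 0.21, adjusted p = 0.0096), Sc5d (-0.89 ± 0.18, adjusted p = 0.0020) and Hsd17b7 (-0.84 ± 0.21, adjusted p = 0.019). Cyp51 (-0.79), Sqle (-0.74), Msmo1 (-0.72), Dhcr7 (-0.65), Mvk (-0.54) and Fdft1 (-0.54) also passed, with the call of Msmo1 lost in 14 of 30 alternatives. All 11 are enzymes of the pathway. Mvk and Msmo1 were not well above background in either control group or in fetal GenX10. A fetal rise of these 2 could therefore be understated, and their differences between tissues are uncertain. Lss missed the threshold (-0.85 ± 0.24, adjusted p = 0.051, with 0.016 to 0.14 over the alternatives). For the 4 genes of SREBP2 control the differences were -0.25 to -0.01, and none was called. The effect on all 10 macrophage markers was also lower in fetal than in maternal liver, with 2 called, both with GenX10 and with PFOA5, and their part was not tested.

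With PFOA5 the fetal effect was smaller in 17 members, and Fdps alone passed (-0.54 ± 0.17, adjusted p = 0.048), where 2.70% of all genes were called in that direction. That call was lost in 21 of 32 alternatives (adjusted p 0.02 to 0.1), among them the fits that left out any control array of either tissue other than maternal control replicate 2, maternal PFOA5 replicate 1, 2, 3 or 5, or fetal PFOA5 replicate 1, 2, 3 or 6. Without maternal control replicate 2 there were 2 calls, Fdps and Hmgcs1. Scap, with a difference of 0.47 (adjusted p = 0.092), was called higher in 3 of 32 alternatives (adjusted p 0.02 to 0.19 over all). With PFOA1 0 members passed, against 0.179% of all genes, and 1 member had an unadjusted p under 0.05. With GenX2 0 members passed, against 1.28% of all genes, and 7 members had an unadjusted p under 0.05, the smallest being that of Sc5d (adjusted p = 0.089). Without maternal control replicate 2 or GenX2 replicate 4, 1 member passed.

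Set side by side, 6 members were called higher in both tissues with PFOA5 (6 of the 7 fetal and of the 13 maternal calls). With GenX2 there were 7 (of 8 and 11), and with GenX10 there were 6 (of 7 and 19). Of all genes, 1.60%, 1.02% and 2.46% were called higher in both tissues with these exposures. Lss, Cyp51, Nsdhl and Hsd17b7 were among them each time. Srebf2 with PFOA5 and GenX2, Npc1 with GenX10 and Hsd17b7 with PFOA1 were called in fetal liver and not in maternal liver, and the difference between tissues was not called for any of these 4.

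**Figure D5:**
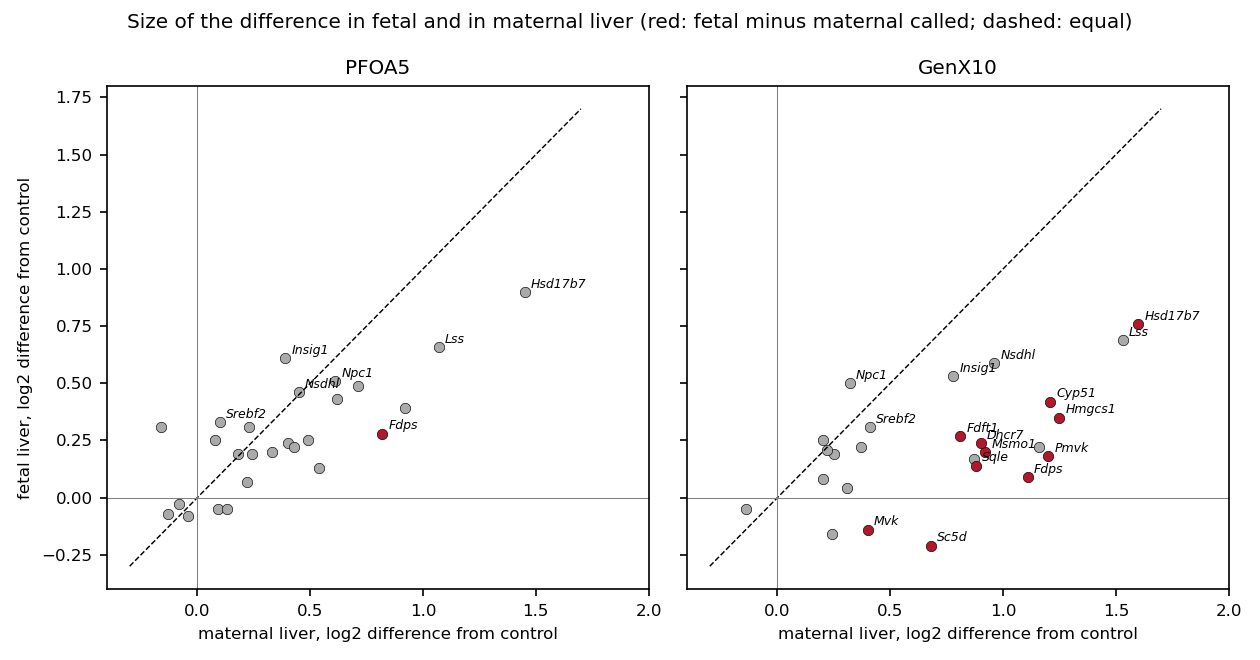
Effects of PFOA5 and of GenX10 on each member, as log2 differences from control, set in fetal liver against maternal liver, with the dashed line where both are equal and red points where the difference between tissues was called. With GenX10 11 members lie on the maternal side in red, with PFOA5 1 (Fdps).

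Neighbouring gene groups were examined with lists chosen for their relation to the pathway. Genes of the isoprenoid side branches, which lead to dolichol, ubiquinone and protein prenylation, had few calls: of 10 measured, 0, 0, 1 and 1 were called higher in fetal PFOA1, PFOA5, GenX2 and GenX10 and 1 lower in fetal PFOA5. In maternal liver 1 was higher with PFOA5 (Pggt1b, 0.24) and 0 with the others. Of 6 genes that process SREBP proteins or degrade sterol-regulated proteins, 0, 2, 1 and 1 were higher in fetal liver and 0, 2, 1 and 2 in maternal liver. Mbtps1, the protease that makes the first cut in SREBP2, rose by 0.22, 0.26 and 0.32 with fetal PFOA5, GenX2 and GenX10. Rnf145, a sterol-responsive ubiquitin ligase, rose by 0.46 with maternal PFOA5 and 0.75 with maternal GenX10.

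Of 12 genes of intracellular sterol transport and cholesterol esters, 2, 4, 3 and 3 were higher in fetal liver. In maternal liver 0, 3, 3 and 4 were higher and 0, 2, 1 and 1 lower. Nceh1, a hydrolase of neutral cholesterol esters, rose by 1.00, 1.36, 1.31 and 1.37 with fetal PFOA1, PFOA5, GenX2 and GenX10, and by 1.74, 1.06 and 1.53 with maternal PFOA5, GenX2 and GenX10. Lipa, the lysosomal acid lipase, rose by 0.35, 0.51, 0.67 and 0.66 in the 4 fetal exposures. Vldlr, a receptor for triglyceride-rich lipoproteins, rose by 1.74, 0.84 and 1.59 with maternal PFOA5, GenX2 and GenX10.

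Genes of fatty acid synthesis, listed here under SREBP1, rose beside the members, and the factor behind their rise was not tested. Of 13 measured, 4, 7, 8 and 8 were called higher in fetal liver and 1, 8, 8 and 11 in maternal liver, with 1 lower in maternal PFOA5. Their median differences were 0.32, 0.59, 0.60 and 0.51 in fetal liver and 0.25, 0.67, 0.64 and 0.96 in maternal liver. Me1, malic enzyme, rose by 2.35 with fetal PFOA5, and Scd1, a fatty acid desaturase, rose by 1.78 with maternal GenX10. Of 12 genes of fatty acid oxidation that respond to PPAR receptors, 10, 11, 11 and 11 were higher in fetal liver and 2, 11, 11 and 11 in maternal liver, with medians of 2.13, 2.60, 2.65 and 2.80 in fetal liver and 0.90, 2.28, 1.68 and 2.27 in maternal liver. The maternal PFOA1 count includes replicate 1, whose Ehhadh level of 10.54 lay within the control range of 10.36 to 10.59. The other arrays of that group stood at 11.94 to 12.36. Of 8 genes that encode the sterol sensor LXR or respond to it, 2, 2, 2 and 1 were higher and 0, 0, 2 and 2 lower in fetal liver, and 1, 4, 3 and 4 were higher in maternal liver.

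Genes outside the list that tracked the mean enzyme level most closely over the 25 arrays of a tissue were Acly (Pearson r = 0.94), Acaca and Fads2 (0.86 each), all of fatty acid synthesis, in fetal liver. The next there were the gene models Gm3571 and Gm6781 (0.83 and 0.82). In maternal liver they were Rdh11, Gm6781, Gm5873 and Gm8163 (0.93 each) and Gm3571 (0.92). Rdh11 is a retinol dehydrogenase, and RefSeq annotates the 4 Gm models as pseudogenes. Signal they share with related genes was not tested. The 25 arrays share their exposures, so these values describe the arrays and test nothing.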

How the data were processed

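Total RNA of maternal and fetal livers was hybridised to 50 Affymetrix whole-transcript arrays. The authors deposited log2 signals, made with RMA (background correction, quantile normalization and probe summary) and, per the submitters' processing notes, on mm10. Array medians ran from 5.15 to 5.34. Depth has no counterpart on arrays, and precision rests on how many arrays a group holds. Of 32750 annotated probes, 30468 carried 1 symbol and 798 several symbols of 1 gene, and 1484 with several genes were left out, which removed the probe shared by Tm7sf2 and Vps51 from the tests. Symbols of 936 were updated through RefSeq. Where a gene had several probes (418 genes), the brightest over all arrays was used. A gene was taken as not well above background in a group where no array exceeded the 95th percentile of its own 5222 negative controls (7.37 to 8.18). A fold against such a group is given as "at least". It sets the mean signal of the other group against the mean of that percentile over the arrays of the group near background.

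Log2 signals were fitted in R 4.3.3 with limma 3.58.1 (lmFit and eBayes, two-sided) over 30723 genes, with the 5 groups of a tissue in 1 fit, or all 10 groups for comparisons between tissues, and Benjamini-Hochberg adjustment. Intervals are at 95%. The fit was tested on simulated data. Other tools were data.table (version 1.17.8), Python 3.11.15, pandas 2.3.3 and numpy 2.4.6, and figures with matplotlib 3.10.9. The members and lists were chosen with earlier results of these data known. Per-array values are given for the 3 called members with the largest difference in each comparison with controls (the smallest p where none was called) and for Insig1, Insig2, Srebf2 and Mylip; called members are named, and of other lists genes with the smallest adjusted p. Samples followed their titles. As far as the labels say, replicates are separate dams and litters. Arrays of the same replicate number did not deviate together on average. Their mean correlations between 2 groups ran from -0.13 to 0.09, and those of arrays of other numbers from -0.02 to 0.03. Single correlations ran from -0.54 to 0.59, and the numbers were not taken as pairs. The labels used here name no batch. Alternatives were an intensity trend in the variance, a filter on dim genes, a second quantile normalization, median centring, averaged probes, other groups in the fit, array weights, a replicate block, an erythroid covariate, other handling of the doubtful fetal arrays, and leaving out each array.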

Additional observations from a re-analysis of the deposited data

Results flagged for a closer look

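In 16 of 260 sets of a member and a group of 4 to 6 arrays, 1 array stood far from the others, where chance alone gives about 1 in 20. In fetal PFOA1, Sc5d replicate 2 had a log2 signal of 9.25 (others 9.63 to 9.73), Mylip replicate 5 had 7.76 (8.06 to 8.13) and Insig2 replicate 2 had 6.76 (7.05 to 7.10). In fetal PFOA5, Npc1 replicate 3 had 8.90 (8.19 to 8.43). In fetal GenX2, Ebp replicate 4 had 6.97 (7.42 to 7.53). In fetal GenX10, Sqle and Sc5d replicate 2 had 9.24 (8.91 to 8.96) and 9.50 (9.14 to 9.19), and Srebf2 replicate 1 had 8.94 (9.04 to 9.06).

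In fetal controls, Idi1 replicate 2 had 9.29 (8.36 to 8.59), Sqle replicate 5 had 8.63 (8.88 to 8.95), and Nsdhl and Hsd17b7 replicate 4 had 9.19 (8.81 to 8.92) and 8.72 (8.15 to 8.30). In maternal liver, Idi1 replicate 2 with GenX10 had 9.18 (9.90 to 10.16), Npc1 replicate 1 with GenX10 had 9.29 (8.88 to 8.99), Msmo1 replicate 3 with PFOA1 had 7.22 (7.46 to 7.55) and Mvk replicate 5 in controls had 7.24 (7.44 to 7.52).

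Of 104 tests of a difference in effect between fetal and maternal liver, 12 passed, all with a smaller fetal effect. With PFOA5 it was Fdps, at -0.54 (95% interval -0.88 to -0.21). With GenX10, the prenyl and mevalonate enzymes were Pmvk at -1.02 (-1.37 to -0.66), Fdps at -1.01 (-1.37 to -0.66), Hmgcs1 at -0.90 (-1.32 to -0.48), Sqle at -0.74 (-1.08 to -0.40), Mvk at -0.54 (-0.78 to -0.30) and Fdft1 at -0.54 (-0.79 to -0.30). The sterol enzymes were Sc5d at -0.89 (-1.26 to -0.53), Hsd17b7 at -0.84 (-1.26 to -0.42), Cyp51 at -0.79 (-1.18 to -0.40), Msmo1 at -0.72 (-1.11 to -0.33) and Dhcr7 at -0.65 (-0.93 to -0.38). Of these, Mvk and Msmo1 were not well above background in either control group or in fetal GenX10.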

How the results depend on the processing

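No call of a member turned its direction under any alternative, and of the results for single members 9913 stayed on their side of the threshold, 110 passed it newly and 247 fell short of it. The maternal rises of Hsd17b7, Lss, Hmgcs1, Fdps, Pmvk and Cyp51 with PFOA5, GenX2 and GenX10 were called under every alternative, as were the fetal rises of Hsd17b7 and Lss with those 3 exposures. Without the low Xist arrays, 0 members were called in fetal PFOA1 and 5 in fetal GenX2. A second quantile normalization left 5 calls in fetal GenX2 and 4 in fetal GenX10, and gave 1 in the difference of the GenX2 effect between tissues, as did the filter on dim genes and array weights (1 each). With the replicate number as a block, 4 members were called in fetal PFOA5, 2 between maternal GenX10 and GenX2, and 0 in the PFOA5 effect between tissues. Calls between maternal GenX10 and GenX2 were 0 with only these groups in the fit and 2 with array weights. Calls in the PFOA5 effect between tissues were 0 with an intensity trend, with source names followed and without the low Xist arrays, and 2 with the filter on dim genes and with array weights. The cause was not tested. Leaving out 1 array at a time gave 0 to 1 calls in fetal PFOA1, 5 to 9 in fetal PFOA5, 6 to 8 in fetal GenX2, 4 to 7 in fetal GenX10, and 0 to 1, 12 to 14, 9 to 13 and 18 to 20 in maternal PFOA1, PFOA5, GenX2 and GenX10. Between doses it gave 3 to 6 calls in maternal PFOA and 0 to 6 in maternal GenX, and 0 in both fetal comparisons. Between tissues it gave 15 to 18 calls in controls, and 0, 0 to 2, 0 to 1 and 9 to 13 in the effects of PFOA1, PFOA5, GenX2 and GenX10. Members not called above were called under a few alternatives in maternal liver: Idi1 with PFOA5 and GenX2 (2 of 19 each), Mvk (4) and Ebp (2) with GenX2, Sqle and Npc1 with GenX2 (1 each), Stard4 (3), Lbr (2) and Npc1 (1) with GenX10, and Ggps1 in 1 of 18. In fetal liver these were Fdft1 with PFOA5 (4 of 24), Npc1 with PFOA1 (1 of 23) and GenX2 (4 of 23), and Dhcr7 with GenX10 (2 of 22). Between tissues, the GenX10 effect on Lss and Mvd was called in 9 of 30 and that on Idi1 in 2, and the GenX2 effect on Sc5d in 5 of 31. Signal over background limits Mvk, Ebp and Insig2 in all fetal groups, Mvk in maternal controls, Msmo1 in both control groups, maternal PFOA1 and fetal GenX10, Lbr in maternal PFOA1, and Ggps1 and Npc2 in all groups. Others were only partly above it. In maternal controls these were Mylip (2 of 5 arrays above), Lss and Lbr (3 of 5 each). Mylip had 1 of 5 in maternal PFOA5, Npc1 2 of 5 in fetal controls, and Msmo1 2 of 6 in fetal PFOA5. With 4 to 6 arrays a group, changes near the fetal differences of Hmgcs1 and Insig1 could miss the threshold.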
